A study of Mus musculus with 12 samples.

Results

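The genes described here are 36 genes of the primitive red cell, its globins and its heme synthesis, chosen by symbol and all found among the 23284 genes of a count table of single mouse embryos. RNA was measured by sequencing of polyadenylated RNA in 12 whole embryos at 9.0 days after fertilization, with about 9 to 10 somites. The 8 CDKO embryos are conditional double mutants labelled null for Tgif1 and Tgif2, and the 4 other embryos are labelled wild type. Both groups were of a mixed C57BL/6 x 129Sv background. The labels name no Cre driver, litter or dissection batch. Tgif1 and Tgif2 encode related homeodomain repressors that restrain TGF-beta and Nodal signalling. The series title poses the question of how loss of both alters expression in the early embryo.

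Primitive red cells arise in the blood islands of the yolk sac from extraembryonic mesoderm and enter the embryo with the onset of circulation. They are nucleated and carry embryonic globins. The alpha-like chain is encoded by Hba-x (zeta-globin) and by the alpha-globin genes Hba-a1 and Hba-a2, and the beta-like chains by Hbb-bh1 and Hbb-y (epsilon-y globin), with Hbb-b1 as a beta-globin gene of adult cells. In mouse primitive red cells Hbb-bh1 is known to be used early and Hbb-y increasingly as the cells mature. The transcription factors Gata1, Klf1 and Tal1 drive the globin, heme and membrane genes of this lineage.

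Libraries held 16802367 to 21346245 counts in CDKO embryos and 17296017 to 20080786 counts in wild-type embryos. Levels are in CPM, the count per 1e+06 counts of the TMM-scaled library. Tgif1 stood at 5.5 to 6.87 CPM in CDKO embryos, against 58.5 to 64.2 CPM in wild-type embryos, so no embryo went against its label. Tgif2 stood at 84.4 to 116 CPM in CDKO embryos, against 85.7 to 88.5 CPM in wild-type embryos. A whole-gene count does not check a partial deletion, so for Tgif2 only the label gives the genotype. The defining genes of primitive red cells were all counted: Hbb-bh1, Hbb-y, Hba-x, Gata1 and Klf1 had counts in every embryo. CDKO embryo 2 was the lowest embryo in each of them, in Gata1 with 6 counts beside 8 in CDKO embryo 3 and 9 in CDKO embryo 4. The counts of called genes are also given without it and wild-type embryo 1, which had less globin RNA than the others of its group.

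The promoters of 4 of these genes are shown, for genes whose levels ranged widely among CDKO embryos: 2 globin genes, the red cell heme enzyme gene Alas2 and the globin regulator gene Klf1. The sequences are from RefSeq on GRCm38.p6, from 250 bases before to 50 bases after the annotated start, 5′ to 3′. Capitals mark GATAA and CACCC on either strand (TTATC and GGGTG on the other), the core letters that GATA factors and KLF factors are known to bind. No match overlaps another in these promoters. All 4 hold both matches. Promoters of other genes of wide range are not shown, so these 4 do not stand for such genes.
Hbb-y promoter, chr7:103853158-103853457, minus strand: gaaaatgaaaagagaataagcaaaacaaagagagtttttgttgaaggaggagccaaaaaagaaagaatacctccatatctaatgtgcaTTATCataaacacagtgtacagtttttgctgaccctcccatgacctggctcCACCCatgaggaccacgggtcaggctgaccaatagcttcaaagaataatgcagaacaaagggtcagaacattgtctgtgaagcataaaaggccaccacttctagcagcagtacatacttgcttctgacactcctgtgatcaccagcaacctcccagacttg
Hba-x promoter, chr11:32276350-32276649, plus strand: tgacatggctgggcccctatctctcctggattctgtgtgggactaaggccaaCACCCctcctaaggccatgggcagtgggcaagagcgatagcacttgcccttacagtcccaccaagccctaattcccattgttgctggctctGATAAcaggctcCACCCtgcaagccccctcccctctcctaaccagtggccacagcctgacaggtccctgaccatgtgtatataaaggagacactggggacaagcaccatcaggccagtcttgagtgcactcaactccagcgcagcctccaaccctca
Alas2 promoter, chrX:150547167-150547466, plus strand: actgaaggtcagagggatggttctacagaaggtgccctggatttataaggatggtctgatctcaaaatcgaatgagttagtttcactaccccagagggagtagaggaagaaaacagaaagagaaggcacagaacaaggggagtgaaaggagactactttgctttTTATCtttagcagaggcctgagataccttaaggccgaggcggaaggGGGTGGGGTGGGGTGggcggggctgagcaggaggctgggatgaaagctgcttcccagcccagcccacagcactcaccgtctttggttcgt
Klf1 promoter, chr8:84901732-84902031, plus strand: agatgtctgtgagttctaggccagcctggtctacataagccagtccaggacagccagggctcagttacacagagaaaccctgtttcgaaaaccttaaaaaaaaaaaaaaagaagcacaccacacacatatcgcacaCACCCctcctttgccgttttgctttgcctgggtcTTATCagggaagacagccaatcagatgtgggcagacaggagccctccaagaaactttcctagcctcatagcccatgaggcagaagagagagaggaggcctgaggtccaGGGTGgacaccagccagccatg
RefSeq promoters were at hand for 26 of the 36 genes, as 32 start sites. GATAA was in 18 of these 32 promoters (56.2%), against 25.4% of all 32851 promoters of the same length. CACCC was in 26 of 32 (81.2%), against 57.5% of all promoters, and both were in 16 of 32 (50%), against 12.6% of all. A match is a string of letters and not a shown binding site. The genes without an entry are Hbb-bh1, Hbb-b1, Nfe2, Lmo2, Fech, Slc4a1, Slc25a37, Ank1, Gypc and Car2.

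Hbb-y was higher relative to the other embryonic globin genes in all CDKO embryos than in any wild-type embryo. The comparison rests on reads that can be told apart, so the first 60 coding bases of both genes are shown, from GENCODE M21 transcripts on GRCm38. Hbb-y lies at chr7:103851749-103853216 and Hbb-bh1 at chr7:103841637-103843164, both on the minus strand. Capitals mark the 21 bases that differ.
Hbb-y: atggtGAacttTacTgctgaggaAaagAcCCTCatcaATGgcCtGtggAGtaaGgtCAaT
Hbb-bh1: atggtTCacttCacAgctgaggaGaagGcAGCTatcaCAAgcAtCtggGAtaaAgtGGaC
Over the 441 coding bases the pair differ at 104 (76.4% identity), and none of the 50-base windows of either transcript, nor of Hba-x, occurs in another gene's transcript. The ratio of Hbb-y counts to Hbb-bh1 counts was 0.833, 1.17, 1.12, 1.05, 0.755, 0.585, 1.31 and 1.13 in CDKO embryos 1 to 8. In wild-type embryos 1 to 4 it was 0.284, 0.375, 0.36 and 0.298. Every CDKO embryo lay above every wild-type embryo, from CDKO embryo 2, with the least globin RNA, to CDKO embryo 8, with the most. The mean ratio was 0.995 ± 0.246 (SD, n = 8) in CDKO embryos and 0.329 ± 0.0447 (SD, n = 4) in wild-type embryos, a 2.95-fold difference between geometric means (two-sided exact permutation test over 495 splits, p = 0.00404, the smallest that this design can give; adjusted p = 0.00404 over 3 ratios). The ratios were chosen after seeing the data, so this p adds nothing beyond the lack of overlap. The adjustment over 3 ratios does not cover that choice.

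Both beta-like genes shifted against the alpha-like gene Hba-x, in opposite directions. Hbb-y over Hba-x was 0.671 ± 0.151 in CDKO embryos (n = 8), with a range of 0.428 to 0.878, and 0.286 ± 0.0281 in wild-type embryos (n = 4), with a range of 0.248 to 0.309. Hbb-bh1 over Hba-x was 0.68 ± 0.0453 in CDKO embryos, with a range of 0.59 to 0.731, and 0.872 ± 0.0742 in wild-type embryos, with a range of 0.824 to 0.982. The groups did not overlap in either ratio. The first was 2.3-fold higher in CDKO embryos and the second stood at 0.78 times its wild-type level (exact permutation p = 0.00404 and adjusted p = 0.00404 for each, again the smallest that this design can give). The 3 ratios share their counts and are not independent of each other. They were chosen with the ranges of these genes in both groups known. Leaving out any embryo kept the log2 difference of Hbb-y over Hbb-bh1 between 1.49 and 1.67. The permutation p was then at most 0.0121. That p was fixed in advance, since groups that do not overlap stay apart when an embryo is left out. The alleles that each embryo carried at the beta-globin locus are not stated in the labels.

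**Figure D1:**
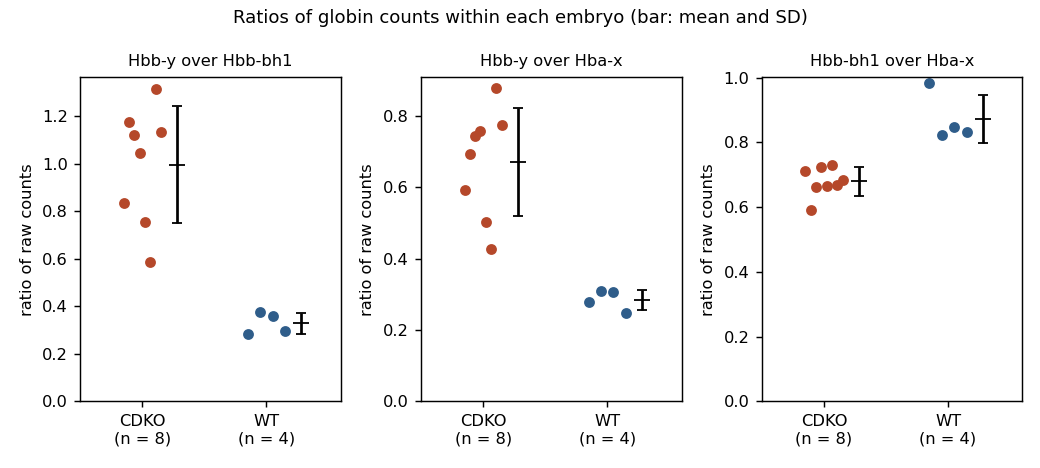
Ratio of raw counts of globin genes within each embryo (vertical axes, no unit), for CDKO embryos (n = 8) and wild-type embryos (n = 4); each point is an embryo and the bar gives the mean and SD. Hbb-y over Hbb-bh1 ranged from 0.585 to 1.31 in CDKO embryos and from 0.284 to 0.375 in wild-type embryos, and the groups are apart in all 3 panels.

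The amount of globin RNA varied far more among CDKO embryos than among wild-type embryos. Summed over the globin genes it was 1369, 35, 321, 232, 302, 414, 1090 and 1645 CPM in CDKO embryos 1 to 8. In wild-type embryos 1 to 4 it was 764, 1276, 1054 and 882 CPM. CDKO embryos 1, 7 and 8 were within or above the wild-type range, and CDKO embryos 2 to 6 were below it. Globins took 0.00344% to 0.166% of all counts in CDKO embryos and 0.0762% to 0.127% in wild-type embryos. These sums hold only Hba-x, Hbb-bh1 and Hbb-y, since Hba-a1, Hba-a2 and Hbb-b1 were listed at 0 counts in all embryos. In whole-embryo RNA, fewer red cells and less globin RNA per cell cannot be told apart.

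Hba-x ranged from 15.3 to 669 CPM in CDKO embryos, with a median of 166 CPM, against 338, 598, 489 and 424 CPM in wild-type embryos 1 to 4 (log2 fold change of means -0.71, SE 0.75, adjusted p = 0.458 by edgeR's quasi-likelihood test with Benjamini-Hochberg adjustment over all genes). Hbb-bh1 ranged from 9.05 to 457 CPM in CDKO embryos, with a median of 116 CPM, against 332, 493, 415 and 353 CPM in wild-type embryos (-1.03, SE 0.75, adjusted p = 0.275). The groups overlapped in both genes: CDKO embryos 1 and 8 were above the lowest wild-type embryo. Hbb-y ranged from 10.6 to 519 CPM in CDKO embryos, with a median of 90.7 CPM, against 94.4, 185, 149 and 105 CPM in wild-type embryos (0.56, SE 0.84, adjusted p = 0.603). CDKO embryos 1, 7 and 8 had 352, 376 and 519 CPM of Hbb-y, above every wild-type embryo, while CDKO embryos 2, 4, 5 and 6 lay below every wild-type embryo. The level of no globin gene passed the test between the groups, and over the 23 alternatives reported Hbb-bh1 passed in 1, Hba-x in 1 and Hbb-y in 0. The log2 fold change of Hbb-y ran from -0.40 to 0.76 over them, with adjusted p of 0.387 to 0.868.

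**Figure D2:**
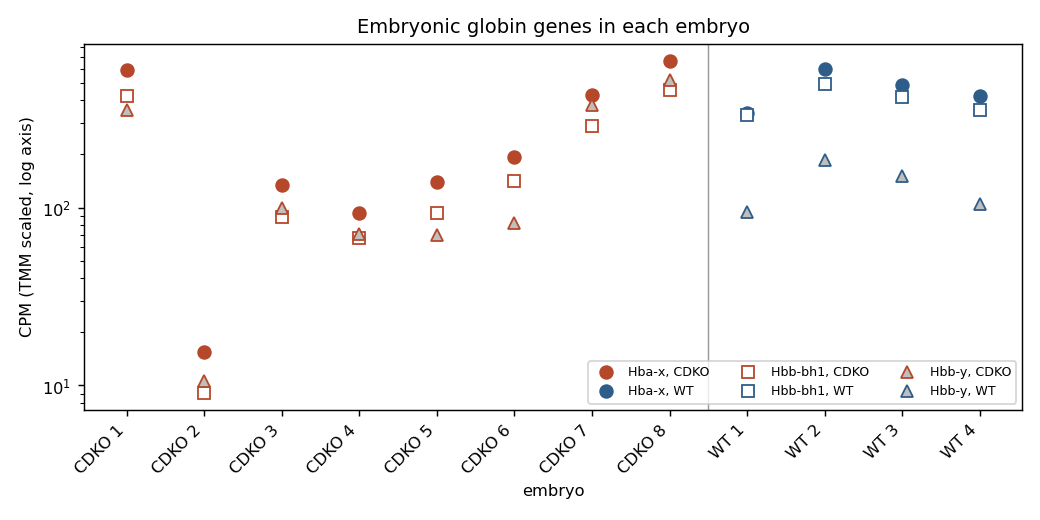
Level of the embryonic globin genes Hba-x, Hbb-bh1 and Hbb-y in each embryo, in CPM on a log axis; each symbol is a gene in an embryo, CDKO embryos at the left and wild-type embryos at the right. All 3 genes are lowest in CDKO embryo 2 (15.3, 9.05 and 10.6 CPM), and Hbb-y sits beside Hbb-bh1 in CDKO embryos but well below it in wild-type embryos.

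Hba-a1, Hba-a2 and Hbb-b1 were listed at 0 counts in all 12 embryos, as was the non-member beta-globin gene Hbb-b2. Whether these genes were silent cannot be told from the table, and the cause of the 0 counts was not tested. GENCODE M21 holds no protein-coding transcript under the symbol Hbb-b1, so its windows were not compared with other genes. The alpha-globin copies are nearly the same sequence. In the 60 coding bases shown, from GENCODE M21 on GRCm38, 0 bases differ between Hba-a1 (chr11:32283511-32284465) and Hba-a2 (chr11:32296489-32297298), both on the plus strand, so neither line has capitals.
Hba-a1: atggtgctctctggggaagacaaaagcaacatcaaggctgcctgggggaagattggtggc
Hba-a2: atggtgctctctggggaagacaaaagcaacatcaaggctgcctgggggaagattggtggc
They differ at 1 of 426 coding bases, and 67.5% of the 50-base windows of the Hba-a1 transcript and 86.9% of those of Hba-a2 occur in the other gene, while the rest do not. Reads of 50 bases from such windows have more than 1 place of origin, and the labels do not say how they were counted. The balance of embryonic and adult alpha-globin was not measured.

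Of the 36 genes, 33 passed the filter on low counts; the 3 others are the globin genes at 0. Of the 33, 7 fell, 2 rose and 24 did not pass the test of CDKO against wild type (edgeR's quasi-likelihood test, adjusted p under 0.05 over 14412 genes). That is 27.3% called, against 51.5% of all genes tested; 26.6% of all genes were higher and 24.9% lower. The median log2 fold change was -0.64 over the 33 genes and 0.01 over all genes tested. The log2 fold change was below 0 for 26 of 33 genes (78.8%), against 49.4% of all genes. These 33 genes are not independent observations, since many varied together among CDKO embryos. CDKO embryo 2 was the lowest embryo for 19 of them. Without CDKO embryo 2 and wild-type embryo 1, 7 genes fell and 1 rose. The number that fell was 15 without CDKO embryo 1, 12 without CDKO embryo 8, and 17 with limma-voom or 25 with limma-voom and sample quality weights. All 7 genes that fell with all embryos were among those that fell under each of these settings.

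The genes with the widest ranges among CDKO embryos were not called by edgeR with all embryos, and their calls depended on the tool. For 16 of the 33 genes the highest CDKO embryo was at least 5 times the lowest. Among these, Gfi1b, Rhag, Kel, Icam4 and Trim10 had a CDKO embryo at 0 counts. Of the 16, 0 passed that test, with SEs of 0.38 to 0.84 on the log2 scale. A wide range among CDKO embryos itself raises the SE, so fewer calls among such genes are partly built into this split. The share called among all genes with such a range is not given. Of the 16, DESeq2 called 1 lower (Klf1), limma-voom 8 and limma-voom with sample quality weights 15, all but Hbb-y. With edgeR, 6 were lower without CDKO embryo 1 (Gata1, Klf1, Nfe2, Gfi1b, Ank1 and Trim10) and 3 without CDKO embryo 8 (Klf1, Rhag and Hemgn). In wild-type embryos 1 gene, Icam4, had a range that wide, though that range is over 4 embryos and not 8. For 13 genes the highest CDKO embryo was under 2 times the lowest, and 7 of these passed, with SEs of 0.05 to 0.18. Over all genes tested, of any range, 51.5% passed. The share among all genes with so narrow a range is not given. The spread of log2 values was wider in CDKO embryos for 29 of 33 genes (87.9%), against 77.2% of all genes tested. CDKO embryo 2 was the lowest of all 12 embryos for 19 of the 33 genes.

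**Figure D3:**
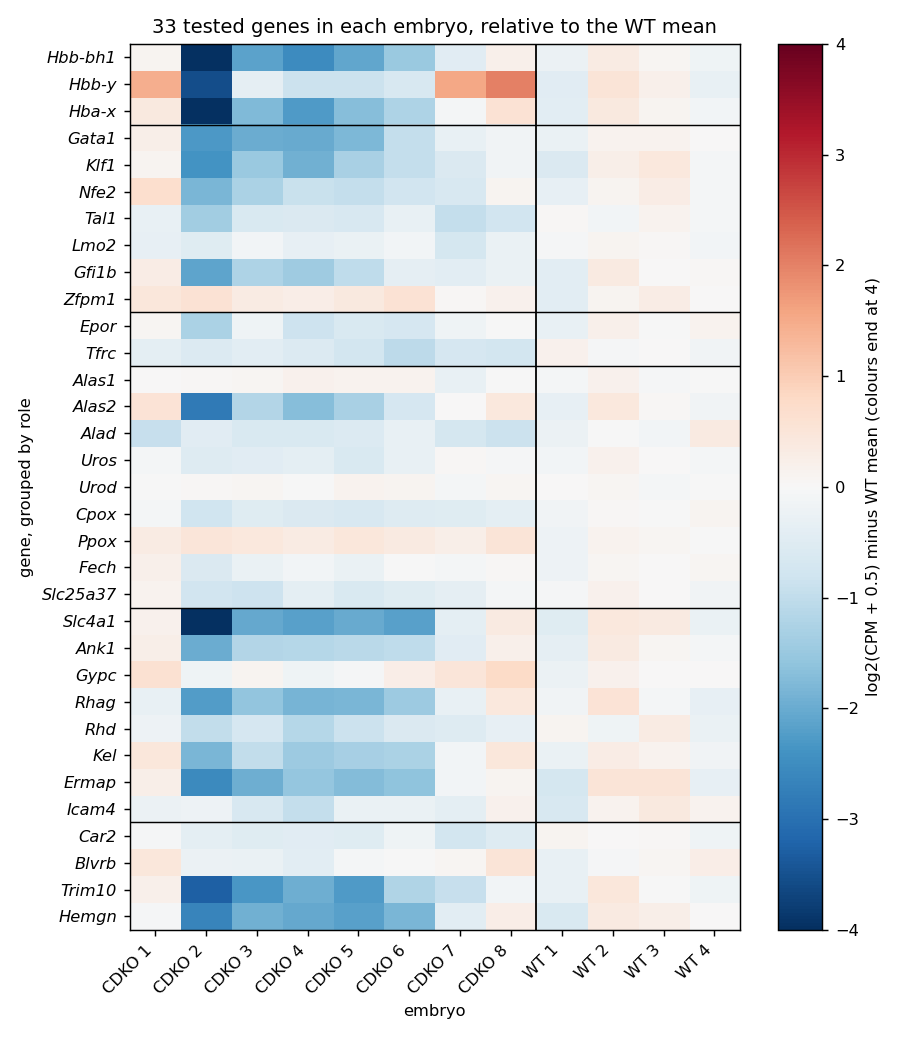
Heat map of the 33 tested genes (rows, grouped by role) in each embryo (columns, CDKO at the left), as log2(CPM + 0.5) minus the wild-type mean; blue is lower, red is higher, and colours end at 4. Hba-x, Hbb-bh1, Gata1, Slc4a1, Alas2, Trim10 and Hemgn are darkest blue in CDKO embryo 2. In CDKO embryos 1, 7 and 8 they are closer to the wild-type mean, some above it (as Hba-x in embryos 1 and 8) and some below. Hbb-y is blue in CDKO embryo 2 and red in CDKO embryos 1, 7 and 8.

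Among the transcription factor genes 2 of 7 fell and 1 rose. Tal1, a basic helix-loop-helix factor needed to specify blood, had a lowest, median and highest level of 11.6, 19.9 and 25.5 CPM in CDKO embryos, against 32.4, 28.9, 34.1 and 29.4 CPM in wild-type embryos 1 to 4. All CDKO embryos were below all wild-type embryos (log2 fold change -0.67, SE 0.16, adjusted p = 0.00309 by edgeR). Lmo2, an adaptor that joins Tal1 to GATA factors, stood at 21.2, 28 and 32.2 CPM (lowest, median and highest) in CDKO embryos, against 33.5, 36.9, 35.5 and 32.1 CPM in wild-type embryos. Only CDKO embryo 6, at 32.2 CPM, reached the lowest wild-type embryo, and the log2 fold change was -0.32 (SE 0.09, adjusted p = 0.00987 by edgeR). Both genes are also used by endothelial cells. Zfpm1, which encodes the GATA1 cofactor FOG1, stood at 65.4, 81.4 and 94.9 CPM (lowest, median and highest) in CDKO embryos, against 46.4, 68.4, 78.1 and 63.2 CPM in wild-type embryos. The groups overlapped, and the log2 fold change was 0.35 (SE 0.13, adjusted p = 0.0361 by edgeR). Its call did not hold without CDKO embryo 1, 2, 5 or 6 or wild-type embryo 1, 2 or 4, with adjusted p up to 0.122 (without wild-type embryo 1).

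Gata1, the main activator of red cell genes, stood at 4.05, 0.286, 0.463, 0.444, 0.616, 1.47, 2.62 and 2.99 CPM in CDKO embryos 1 to 8. In wild-type embryos 1 to 4 it stood at 2.66, 3.7, 3.69 and 3.39 CPM. As for the globins, CDKO embryos 1, 7 and 8 were highest and embryo 2 lowest, and it did not pass the test (log2 fold change -1.06, SE 0.57, adjusted p = 0.142 by edgeR). Without CDKO embryo 1 Gata1 stood at -1.41 and passed (adjusted p = 0.0385 by edgeR), and with all embryos it stood at -1.63 with limma-voom (adjusted p = 0.0151). Klf1, an activator of globin genes, had a lowest, median and highest level of 0.333, 1.52 and 4.15 CPM in CDKO embryos and of 2.43, 4.12 and 5.3 CPM in wild-type embryos (-1.08, SE 0.49, adjusted p = 0.0791 by edgeR). Klf1 was lower in 5 of 23 alternatives, among them DESeq2 (adjusted p = 0.0486) and edgeR without CDKO embryo 1 (0.023) or CDKO embryo 8 (0.0442). Nfe2, a bZIP activator of globin genes, and Gfi1b, a repressor needed for red cell and platelet maturation, had log2 fold changes of -0.64 (SE 0.46) and -0.97 (SE 0.56) and did not pass by edgeR with all embryos. Both passed with limma-voom and sample quality weights (adjusted p = 0.00625 and 0.00782). These 4 genes are low in counts, at 244 counts for Gata1, 285 for Klf1, 262 for Nfe2 and 130 for Gfi1b over the 8 CDKO libraries, against 251, 298, 200 and 127 over the 4 wild-type libraries.

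Of the 2 receptor genes, Tfrc fell and Epor did not pass. Tfrc, the transferrin receptor through which dividing cells and red cells take up iron, had a lowest, median and highest level of 101, 136 and 161 CPM in CDKO embryos, against 237, 199.9, 209 and 191 CPM in wild-type embryos 1 to 4. Every CDKO embryo was below every wild-type embryo (log2 fold change -0.63, SE 0.10, adjusted p = 0.000152 by edgeR). Epor, the erythropoietin receptor, ranged from 1.52 to 4.67 CPM in CDKO embryos, against 3.42 to 5.06 CPM in wild-type embryos (-0.47, SE 0.24, adjusted p = 0.12 by edgeR).

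Heme synthesis genes moved in both directions, and the called enzymes are also used outside red cells. Alad, the second enzyme of the pathway, had a lowest, median and highest level of 47.6, 58.9 and 73.2 CPM in CDKO embryos, against 77.5, 90.1, 82.9 and 114.7 CPM in wild-type embryos 1 to 4. The groups did not overlap, and the lowest CDKO embryo for Alad was embryo 1, which was high in globins (log2 fold change -0.64, SE 0.12, adjusted p = 0.000436 by edgeR). Cpox, which acts on coproporphyrinogen, had levels of 44.7, 54.7 and 72.9 CPM (lowest, median and highest) in CDKO embryos, against 70.1, 79.5, 76.8 and 83.4 CPM in wild-type embryos. Only CDKO embryo 1, at 72.9 CPM, entered the wild-type range (-0.49, SE 0.10, adjusted p = 0.000774 by edgeR). Ppox, which acts next after Cpox, rose: its levels were 18.8, 21.2 and 23.3 CPM in CDKO embryos, against 13.8, 17.9, 17 and 15.9 CPM in wild-type embryos. All CDKO embryos were above all wild-type embryos (0.40, SE 0.08, adjusted p = 0.000883 by edgeR). The calls of Alad, Cpox, Ppox, Tfrc, Tal1, Lmo2 and Car2 held in all 23 alternatives reported. That of Rhd held in all 22 alternatives that tested it.

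Alas2, the red cell form of the enzyme that starts the pathway, behaved like the globins and not like Alas1, the form of other cells. Alas2 ranged from 1.24 to 17.6 CPM in CDKO embryos, with a median of 6.16 CPM, and stood at 9.33, 16.2, 12.5 and 10.8 CPM in wild-type embryos 1 to 4 (log2 fold change -0.54, SE 0.55, adjusted p = 0.446 by edgeR). Alas1 ranged from 26.9 to 36.9 CPM in CDKO embryos, against 31.1 to 37 CPM in wild-type embryos (0.04, SE 0.08, adjusted p = 0.698 by edgeR). Urod, Uros and Fech, further enzymes of the pathway, and Slc25a37, which imports iron into mitochondria of red cells, did not pass, with log2 fold changes of 0.04, -0.29, -0.12 and -0.39. Slc25a37 was near the threshold (adjusted p = 0.0532 by edgeR), passed with DESeq2 (adjusted p = 0.0224) and was lower in 7 of 23 alternatives. Uros was near it too (adjusted p = 0.0606 by edgeR), passed with DESeq2 (adjusted p = 0.0459) and was lower in 6 of 23. Some 13.8% of the 50-base windows of the Alas2 transcript lie in other annotated transcripts, of its neighbour Apex2 and a microRNA gene, and 11% of those of Alas1 in 1 other gene.

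Of the red cell membrane genes 1 of 8 fell and 7 did not pass by edgeR with all embryos. Rhd, which encodes an Rh blood group protein, had a lowest, median and highest level of 0.197, 0.496 and 0.831 CPM in CDKO embryos, against 1.16, 0.861, 1.44 and 0.798 CPM in wild-type embryos 1 to 4, from 75 counts in CDKO and 78 counts in wild-type libraries. Only CDKO embryo 1 reached the lowest wild-type embryo (log2 fold change -1.08, SE 0.32, adjusted p = 0.00961 by edgeR). Slc4a1, the anion exchanger band 3, had the widest range of the membrane genes with no count of 0, from 0.714 to 47.8 CPM in CDKO embryos, against 26.6 to 49.6 CPM in wild-type embryos (-1.02, SE 0.74, adjusted p = 0.273 by edgeR). Ank1, which ties band 3 to the spectrin skeleton, ranged from 2.33 to 12.6 CPM in CDKO embryos, against 8.17 to 13.6 CPM in wild-type embryos (-0.68, SE 0.38). Rhag, a partner of Rh proteins, Kel, a blood group peptidase, and Ermap, a red cell adhesion protein, had log2 fold changes of -1.25 (SE 0.72), -0.79 (SE 0.70) and -1.05 (SE 0.62), with 0 counts of Rhag and Kel in CDKO embryo 2. Gypc, glycophorin C, was higher in mean and did not pass (0.27, SE 0.18). Icam4, an adhesion molecule, is uncertain, since 95% of its 50-base windows lie in another annotated transcript and its level was 0 to 0.589 CPM in CDKO embryos and 0.116 to 0.749 CPM in wild-type embryos.

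Among the remaining genes, Car2, a carbonic anhydrase also found outside blood, fell. Its lowest, median and highest level was 36.8, 44.8 and 59.8 CPM in CDKO embryos, against 66.7, 62.3, 64.3 and 55.6 CPM in wild-type embryos 1 to 4. CDKO embryo 1 alone entered the wild-type range (log2 fold change -0.41, SE 0.10, adjusted p = 0.00367 by edgeR). Trim10 and Hemgn, genes of maturing red cells, had log2 fold changes of -1.30 (SE 0.70) and -1.20 (SE 0.66) and did not pass by edgeR with all embryos. Trim10 ranged from 0 to 5.04 CPM in CDKO embryos, against 3.48 to 6.18 CPM in wild-type embryos. Blvrb, a biliverdin reductase, stood at 8.91 ± 2.29 CPM in CDKO embryos (SD, n = 8) and at 8.75 ± 1.49 CPM in wild-type embryos (SD, n = 4). Over the 33 genes the groups did not overlap in 4 (Tal1, Tfrc, Alad and Ppox), against 34.7% of all genes tested.

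**Figure D4:**
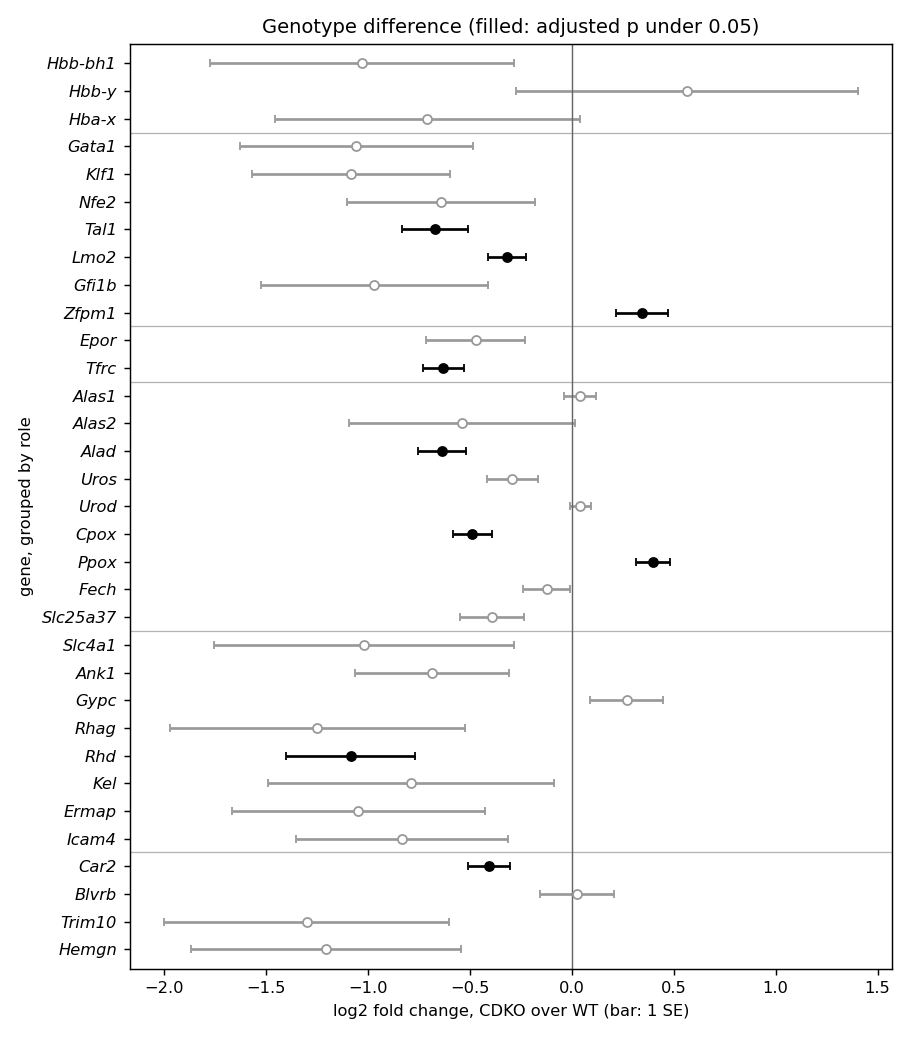
Log2 fold change of CDKO over wild type for the 33 tested genes (rows, grouped by role), with a bar of 1 SE; filled points have an adjusted p under 0.05 by edgeR. Of the 9 called genes Rhd has the widest bar (0.32), and the globin genes, Gata1, Slc4a1 and Trim10 have wider ones. Some genes that were not called, such as Epor (0.24) and Gypc (0.18), have shorter bars than Rhd.

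Related genes outside the 36 showed no common direction. Of 21 further heme and iron genes 3 rose and 6 fell, with a list median of 0.03. Steap3, a ferrireductase of the transferrin cycle, averaged 2.99 CPM in CDKO embryos and 5.63 CPM in wild-type embryos (log2 fold change -0.91, adjusted p = 0.000322 by edgeR). The heme exporter gene Flvcr1, listed under its older symbol Mfsd7b, averaged 16.1 CPM in CDKO embryos and 27.3 CPM in wild-type embryos (-0.76, adjusted p = 2.04e-06 by edgeR). Of 23 further red cell regulators 5 rose and 5 fell, among them Stat5a, a signal transducer of the erythropoietin receptor, at 8.59 CPM in CDKO embryos and 2.88 CPM in wild-type embryos (1.57, adjusted p = 2.69e-07 by edgeR). Of 13 further membrane and skeleton genes 5 rose and 2 fell. All of these counts are to be read against the 51.5% of all genes that passed.

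Markers of other cell types are given by counts and summed levels, beside 51.5% of all genes called and 26.6% called higher. Of 18 endothelial genes 9 rose and none fell, and their summed level was 723 to 1011 CPM in CDKO embryos and 586 to 694 CPM in wild-type embryos. Of 12 megakaryocyte and platelet genes 5 were tested and 3 rose (Itga2b, Gp1bb and Itgb3), with a summed level of 17.6 to 50.1 CPM in CDKO embryos and 16.3 to 17.3 CPM in wild-type embryos. Of 14 macrophage and white cell genes 4 were tested and 2 rose, Coro1a and Mrc1, with a summed level of 28.4 to 43.7 CPM in CDKO embryos and 8.17 to 11.5 CPM in wild-type embryos. Coro1a alone averaged 23 CPM in CDKO embryos and 3.11 CPM in wild-type embryos, and the defining white cell marker Ptprc averaged 0.063 CPM in CDKO embryos and 0 CPM in wild-type embryos, where Cx3cr1, S100a8, S100a9 and the platelet gene Gp6 were at 0 too. None of 15 yolk sac endoderm genes passed, with a summed level of 1060 to 4245 CPM in CDKO embryos and 960 to 2860 CPM in wild-type embryos. No gene of these lists was at 0 in all 12 embryos, and the part of these cells in the results above was not tested.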

How the data were processed

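The authors deposited 1 table of raw counts, with a row for each gene symbol and a column for each embryo. The submitters' processing notes name STAR, featureCounts, FastQC and DESeq2 and the build mm9, and per the labels' protocols libraries were poly-A selected with paired reads of 50 bases. Tool versions, the annotation, strandedness and the handling of multi-mapping reads were not given in the sources used here. Samples were grouped by the genotype label; replicate numbers follow sample order and pair nothing. Single embryos are the replicates, and the p-values reflect only the variation among them. No pair of libraries of a group was within sampling noise (lowest chi-square per degree of freedom 3.89, 34 pairs).

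All 14412 genes kept by filterByExpr were tested with edgeR 4.0.16 (R 4.3.3): TMM scaling, robust dispersions, quasi-likelihood F test, 8 CDKO against 4 wild type, Benjamini-Hochberg, threshold 0.05. The SE is the size of the log2 fold change divided by the square root of F. Levels in CPM are counts over TMM-scaled library sizes. Alternatives used DESeq2 1.42.0 and limma 3.58.1. On simulated counts for the same 14412 genes the test called 43 of 62 genes altered 1.5-fold, 58 of 70 altered 2-fold and 64 of 68 altered 4-fold, with 5 unaltered genes among 170 calls. The altered genes were picked at random and simulated independently, and most genes were unaltered, while 51.5% were called in the data. These shares therefore do not give the power for the 16 genes of wide range, with SEs of 0.38 to 0.84. Precision did not follow the counts per gene alone. Hbb-y had 29953 counts in CDKO libraries and an SE of 0.84, while Ppox had 3246 counts and an SE of 0.08. Intervals from PCR reads would cover counting error only and none are given. The genes, lists and ratios were chosen with earlier results of these data known. Values are given for every globin, for Gata1 and for every gene past 0.05; the other genes are given by ranges and counts. Symbols of older annotation were matched through the GRCm38.p6 RefSeq table. A planned index of blood content, and the fits that use it, are not reported here.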

Additional observations from a re-analysis of the deposited data

Results flagged for a closer look

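In 66 groups of embryos (33 tested genes in CDKO and in wild-type embryos), 1 embryo (1.52% of groups) lay far from the rest of its group by a gap test at the 95% level, which by chance would be about 1 in 20. Alas1 in CDKO embryo 7 stood at 26.9 CPM, below the next CDKO embryo at 32.3 CPM and the highest at 36.9 CPM. The wide spread of the globin genes among CDKO embryos did not meet this test.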

How the results depend on the processing

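The counts of called genes depended on the setting. With all embryos 2 of the 33 genes were higher and 7 lower in CDKO embryos. Leaving out each embryo in turn gave 1 to 2 higher and 7 to 15 lower. The number higher was 1 with no count filter, with a threshold of 0.01 and without CDKO 2 and WT 1 together. The number lower was 17 with limma-voom and 25 with limma-voom and sample quality weights. RLE and upper-quartile scaling, and TMM without red cell genes, left the counts at 2 and 7. The ratios of globin counts do not depend on scaling. Without each embryo the log2 difference was 1.49 to 1.67 for Hbb-y over Hbb-bh1 and 1.14 to 1.29 for Hbb-y over Hba-x. It was -0.38 to -0.30 for Hbb-bh1 over Hba-x. The direction and the side of 0.05 could not change, since groups that do not overlap stay apart when an embryo is left out. The cause of these shifts was not tested. No paired analysis was possible because the labels give no shared replicate numbers. The ratios were added after seeing the data. The planned fit with blood content as a covariate is not reported here. Low counts limit Rhd, Kel, Rhag, Icam4 and Gfi1b.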
